A study of Mus musculus with 12 samples.

Results

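The interaction of 4OHT and MG132 is the difference between 2 responses of mouse embryonic stem cells: the change with 4OHT in the presence of the proteasome inhibitor MG132, minus the change with 4OHT in its absence. All 12 arrays of the study entered it, in 4 groups of 3 arrays. A positive value means that 4OHT moved a transcript further up, or less far down, when MG132 was present, and a negative value the opposite. The untreated cells were labelled as 0 h. The 4OHT cells received 250 nM 4OHT for 6 h, the MG132 cells 1 µM MG132 for 30 min and the following 6 h, and the cells with both compounds were given MG132 30 min ahead of 6 h with 4OHT and MG132 together. Medium with LIF (leukaemia inhibitory factor) and 250 nM PD173074, which blocks fibroblast growth factor receptors, was common to all groups. The series title ties the events to the proteasome and to the kinase ERK. No vehicle, no untreated group at 6 h and no protein that 4OHT acts on was named in the labels used here. The control was therefore at 0 h in the response without MG132 and at the end of the MG132 treatment in the response with it, so hours in culture and MG132 cannot be told apart in the interaction. Whether the 3 arrays of a group, described as biological replicates, came from separate cultures was not stated further, so the p-values speak of the spread among these samples.

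4OHT (4-hydroxytamoxifen) is an oestrogen receptor ligand, and proteins carrying an altered hormone-binding domain of that receptor become active when it is added. ERK, the last kinase of the Ras, Raf and MEK cascade, induces immediate-early transcription factors within minutes, then feedback inhibitors of the cascade, and in embryonic stem cells it drives exit from naive pluripotency towards the epiblast and the germ layers. The proteasome breaks down ubiquitin-tagged proteins, among them many short-lived transcription factors and signalling proteins, and its inhibition also calls up heat shock, ATF4 and p53 target genes.

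Of 26837 genes tested, 1735 (6.46%) were called in the interaction (limma, adjusted p under 0.05), 791 (2.95%) with a positive and 944 (3.52%) with a negative value. Without MG132 4OHT changed 7598 genes (28.3%), with 3488 rises (13%) and 4110 falls (15.3%). With MG132 it changed 6998 genes (26.1%), with 3469 rises (12.9%) and 3529 falls (13.1%). These shares are of all genes tested and are the background for the lists below. Among genes with a symbol, as all list members are, 1308 of 15982 were called in the interaction. That share is larger than 6.46%, so the contrast of a list with all genes is overstated to that extent. The response was smaller in size with MG132 in 1158 of the 1735 genes and larger in 577. This split was not counted over all genes, whose responses also spread less with MG132 (SD 0.64 against 0.81 on the log2 scale). Replicates were least alike in the 4OHT group (values below), which of these responses enters only the one without MG132. Its part in the split and in the wider spread was not tested. Most genes with a negative value had risen with 4OHT alone, and most with a positive value had fallen. The interaction subtracts the response without MG132, so being called favours these directions. This and the counts that follow describe the called genes and are no separate test. Of 700 genes that rose without MG132 and had a negative interaction, 401 were not called with MG132, 198 still rose and 101 fell. Of 523 genes that fell without MG132 and had a positive interaction, 315 were not called with it, 137 still fell and 71 rose. Another 432 were called in the interaction and in the response with MG132 but not in the response without it, 209 of them as rises and 223 as falls. Gains of a called response in its own direction were fewer: 51 rises and 19 falls were larger with MG132, and 10 genes were called in neither response alone. Over all genes the responses, which share no array, correlated at r = 0.63 (Spearman rho 0.55; across genes, which are not independent replicates), with an SD of 0.81 without and 0.64 with MG132 on the log2 scale.

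**Figure D1:**
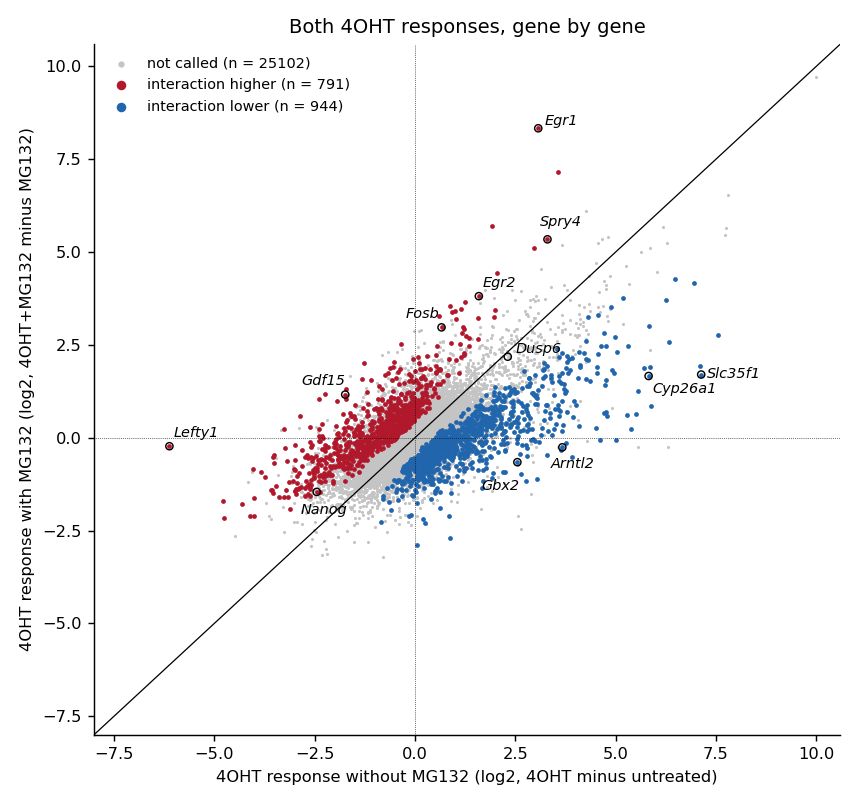
Each point is 1 of 26837 genes, with its 4OHT response without MG132 (log2, horizontal) and with MG132 (log2, vertical); the diagonal marks equal responses, and circles mark genes named beside them. The 791 genes with a positive interaction lie above the diagonal and the 944 with a negative one below it, with Egr1 at 3.07 and 8.33 and Slc35f1 at 7.13 and 1.70.

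The arrays were hybridised on 2 slides, and no slide held all 4 groups: the untreated, the 4OHT and 2 of the MG132 arrays lay on slide 1, and slide 2 held MG132 replicate 3 with the 3 combined arrays. With slide as a block 761 genes (2.84%) were called, 692 of them among the 1735, and that value sets the arrays with both compounds against a single MG132 array. With slide and replicate number as blocks 767 genes (2.86%) were called, 634 of them shared. All 1735 kept their sign in both fits, and 502 were called in all 3 fits. The count also moved with single arrays, to 1071 without untreated replicate 1, 1021 without untreated replicate 2, 1112 and 1043 without MG132 replicate 1 and 2, and 1033 and 998 without replicate 1 and 2 of the cells with both compounds. Centring the arrays on their median in place of their 75th percentile turned the split to 881 positive and 590 negative calls, so the balance of directions depends on the scaling. Between 49.4% (4OHT replicate 2) and 63.2% (MG132 replicate 3) of the probes were well above background on each array. Replicates were least alike in the 4OHT group, with r of 0.976 to 0.982. The range was 0.993 to 0.996 in untreated cells, 0.987 to 0.993 with MG132 and 0.993 to 0.996 with both compounds. The SD of deviations was 0.39 to 0.45 for 4OHT replicates, and 0.19 to 0.29 for the others. All 10 embryonic stem cell markers were well above background on every array, with a summed level of 1280 to 1330 without MG132 and 696 to 809 with it (linear, relative to each array's 75th percentile), and 1 of the 10 was called in the interaction. The summed level of fibroblast markers, a check for feeder cells, was 136 to 174 on untreated arrays, and 195 to 250 on those with 4OHT alone. It was 135 to 143 on the MG132 arrays, and 160 to 178 on those with both compounds. In RNA from whole cultures, fewer cells of a type and less RNA per cell cannot be told apart, and the part of these shifts in the results was not tested.

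Larger rises with MG132 included several immediate-early genes. Egr1, a zinc finger transcription factor that ERK induces through serum response factor and its ETS partners, had levels of 1.51, 1.69 and 1.82 in untreated cells, 5.03, 4.78 and 4.41 with 4OHT, -1.11, -1.07 and -1.81 with MG132, and 7.10, 7.07 and 6.82 with both (log2, relative to each array's 75th percentile, replicates 1 to 3, as for all levels that follow). The 4 groups did not overlap: MG132 alone gave the lowest levels and both compounds the highest, above 4OHT alone. The response went from 3.07 ± 0.22 (8.39-fold, with the SE, n = 3 arrays per group, as below) to 8.33 ± 0.22 (321-fold). Each SE rests on 1 spread per gene fitted over all 12 arrays, so it also carries the spread of groups outside a response. The interaction was 5.26 ± 0.30 (limma, adjusted p = 4.4e-05), or 38.2-fold. With slide as a block it was 5.74 (limma, adjusted p = 0.00018).

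Egr2, a related zinc finger factor, stood at -3.08, -3.30 and -3.33 in untreated cells, -1.33, -1.42 and -2.19 with 4OHT, -3.01, -2.83 and -4.0 with MG132, and 0.75, 0.65 and 0.20 with both. Here MG132 arrays overlapped with the untreated ones, and the arrays with both compounds lay above all others. The rise of 1.59 without MG132 became 3.81 with it (interaction 2.23 ± 0.45, limma adjusted p = 0.017). Fosb, which encodes an AP-1 subunit, had levels of -2.68, -2.59 and -2.65 in untreated cells, -1.80, -1.64 and -2.50 with 4OHT, -3.08, -2.39 and -2.62 with MG132, and 0.58, 0.44 and -0.21 with both. Its change of 0.66 without MG132 was not called (limma, adjusted p = 0.096) and its rise of 2.97 with MG132 was, an interaction of 2.31 ± 0.38 (adjusted p = 0.0068, and 0.056 with slide and replicate blocks). Fos, the founding AP-1 subunit, was at -0.44, -0.33 and -0.39 in untreated cells, 1.92, 1.87 and 1.05 with 4OHT, -0.24, -0.33 and -0.32 with MG132, and 3.05, 3.14 and 3.21 with both. Untreated and MG132 arrays overlapped, and the rise was 2.0 without and 3.43 with MG132. Its interaction of 1.43 ± 0.27 (limma, adjusted p = 0.014) was not called with slide as a block (1.45, adjusted p = 0.067). Maff, which encodes a small Maf protein that partners AP-1 and NRF2 factors, rose by 1.97 and 3.25, an interaction of 1.27 ± 0.24 (limma, adjusted p = 0.013, and 0.085 with slide and replicate blocks).

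**Figure D2:**
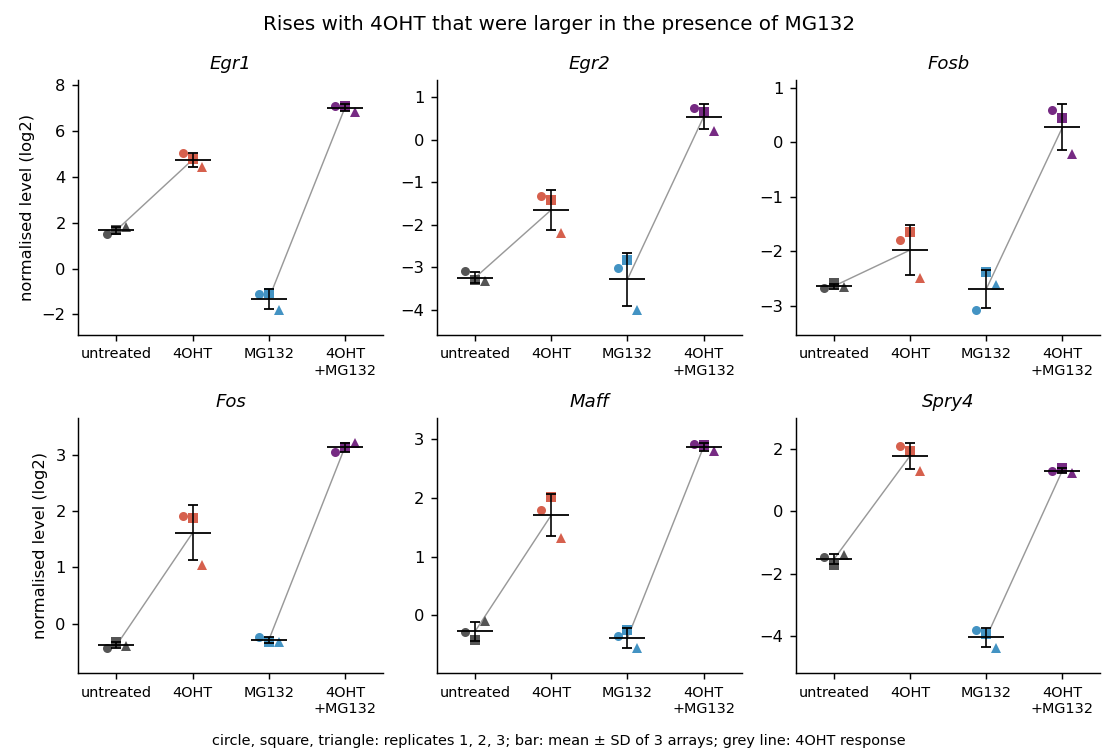
Normalised level (log2, relative to each array's 75th percentile) of 6 genes on every array, with the mean and SD of 3 arrays per group and a line for each 4OHT response. In all 6 the line on the right, with MG132, is steeper than the line on the left; for Egr1 and Spry4 it also starts lower, at -1.33 and -4.04.

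Across 28 immediate-early genes tested, 6 had a positive and 4 a negative interaction, 35.7% against 6.46% of all genes, with a median of 0.29 against 0.05 over all genes. The list's median response was 1.42 without and 1.11 with MG132. Both responses were rises for most members: 18 rose and 4 fell without MG132, and 19 rose and 1 fell with it. Over all genes 13% rose and 15.3% fell without MG132, and 12.9% rose and 13.1% fell with it. The sixth positive member was Ccn2, which encodes a matrix protein and is also a target of YAP: it changed by -0.07 without and rose by 1.03 with MG132 (interaction 1.1 ± 0.16, limma adjusted p = 0.0039). Members with a negative value did rise with 4OHT alone. Ier5 had levels of -0.26, -0.09 and -0.39 in untreated cells, 3.43, 3.37 and 3.13 with 4OHT, 1.67, 1.57 and 1.26 with MG132, and 2.43, 2.33 and 2.35 with both. MG132 alone stood above untreated cells, and cells with both compounds stayed below those with 4OHT alone. The rise of 3.56 thus became 0.87 (interaction -2.68 ± 0.19, limma adjusted p = 9.7e-05). Fosl1, the AP-1 subunit most tied to sustained ERK activity, differed in another way: it was lowest in untreated cells (mean -3.61), 1.39 with 4OHT, 0.67 with MG132 and highest with both (3.37). Its rise of 4.99 became 2.70 (interaction -2.30 ± 0.48, limma adjusted p = 0.019), a call not made with slide as a block (adjusted p = 0.11) or without untreated replicate 2 or MG132 replicate 1 (adjusted p up to 0.053). Myc (-1.14) and the orphan nuclear receptor gene Nr4a1 (-0.79) completed the negative members. Both lost the call with slide as a block (limma, adjusted p = 0.17 and 0.20), and when 8 and 9 of the 12 arrays were left out in turn (adjusted p up to 0.081 and 0.091).

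Among 28 feedback genes and ETS targets, the negative regulators and downstream genes of the ERK cascade, 1 member had a positive and 3 a negative interaction. That was 14.3% called against 6.46% of all genes, and the median interaction was -0.16. The positive member was Spry4, which encodes a Sprouty inhibitor of receptor tyrosine kinase signalling. Its levels were -1.46, -1.73 and -1.41 in untreated cells, 2.09, 1.92 and 1.30 with 4OHT, -3.81, -3.92 and -4.39 with MG132, and 1.29, 1.39 and 1.22 with both. The arrays with both compounds overlapped with those of 4OHT alone, and the MG132 arrays lay below all others. The rise of 5.34 ± 0.21 with MG132 against 3.30 ± 0.21 without it thus began from a lower level (interaction 2.04 ± 0.30, limma adjusted p = 0.0041). Dusp2, which encodes a nuclear MAP kinase phosphatase, showed the reverse: -2.24, -2.30 and -2.0 in untreated cells, 1.90, 1.93 and 0.89 with 4OHT, 0.05, 0.04 and 0.06 with MG132, and 1.29, 1.29 and 1.36 with both. MG132 alone was above untreated cells, and the 4OHT and combined arrays overlapped. Its rise was smaller with MG132 (3.76 against 1.27; interaction -2.49 ± 0.33, limma adjusted p = 0.0025). Vgf, a neuropeptide precursor, rose by 6.32 without and 2.58 with MG132 (-3.74 ± 0.52, limma adjusted p = 0.0031, and 0.051 with slide and replicate blocks), although a dimmer probe of the gene gave -0.57. Il17rd, which encodes the inhibitor Sef, was the other negative member (-0.70; a dimmer probe gave -0.03), with no call when slide was a block (limma, adjusted p = 0.20) or when 9 of the 12 arrays were left out in turn (adjusted p up to 0.095). The list's median turned to 0.01 at most under 2 alternatives. For Dusp6, the cytosolic ERK phosphatase, both responses passed the test and the interaction did not, at -0.13 ± 0.26 (rises of 2.31 and 2.18; limma, adjusted p = 0.83).

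Large losses of a rise also lay outside these lists, in some genes from a higher level with MG132 alone (values below). Arntl2, a clock factor of the bHLH-PAS family, stood at -2.63, -2.75 and -2.57 in untreated cells, 1.18, 1.25 and 0.64 with 4OHT, -1.08, -1.01 and -0.66 with MG132, and -1.25, -1.27 and -1.0 with both. Its arrays with MG132 overlapped whether or not 4OHT was present, and the rise of 3.67 gave way to -0.26, which was not called (interaction -3.93 ± 0.24, limma adjusted p = 5.9e-05). Among further genes, Mfap3l was well above background on only 2 of 3 MG132 arrays and 1 of 3 arrays with both compounds. Edn2 was so on 2 of 3 untreated and 2 of 3 MG132 arrays, and Shisal1 on 2 of 3 untreated arrays. The homeobox gene Gsx1 (5.27 against 0.60), the endothelial adhesion gene Esam (5.56 against 1.26), the endothelin gene Edn2 (4.78 against 0.57), Mfap3l (3.29 against -0.46) and Shisal1 (2.63 against -0.97) had interactions between -4.67 and -3.59. Each of these was called with slide as a block and with slide and replicate blocks.

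In 207 of the 1735 genes at least 1 group had no array well above background, so a level there is only a bound. Slc35f1, a member of a solute carrier family, was not well above background on the untreated arrays and was at least 30.6-fold higher with 4OHT alone, the mean with 4OHT being set against the detection floor or the measured signal of each untreated array, whichever was higher. With MG132 its rise was 3.25-fold (fitted interaction -5.43 ± 0.38, limma adjusted p = 9.7e-05). The glutamate receptor gene Grm6 was at least 62.9-fold higher without and at least 2.60-fold higher with MG132, and the nucleolar protein gene Nol4 at least 28.6-fold and at least 1.77-fold. In Grm6 and Nol4, as in Krt76 below, both folds are lower bounds and cannot be ranked. The fitted interaction of such a gene rests in part on signals not well above background. For the organic anion transporter gene Slco2b1 the values were at least 5.85-fold higher without and 1.05-fold lower, not called, with MG132. Krt76, a keratin gene, went the other way, at least 2.56-fold without and at least 32.1-fold with MG132 (fitted interaction 3.58 ± 0.80, limma adjusted p = 0.026), a call lost with slide as a block (adjusted p = 0.060) and without 6 of the 12 arrays in turn (untreated replicates 1 and 2, MG132 replicates 1 and 3, and replicates 1 and 2 with both compounds; adjusted p up to 0.070).

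The level with MG132 alone, the control of the second response, varied among these genes. Among the 700 genes that rose without MG132 and had a negative interaction, the MG132 mean was at least 2-fold above the untreated mean in 204 (29.1%), as in Ier5, Dusp2 and Arntl2, and at least 2-fold below it in 33 (4.71%); it was within 2-fold in the other 463. Over all genes tested these shares were 11.7% and 5.50%. Of the genes named above, MG132 alone exceeded untreated cells by 4.47 for Shisal1, 3.36 for Vgf and 2.61 for Gsx1 (log2). The values for Edn2, Esam and Mfap3l were 0.91, 0.82 and 0.44. Slc35f1 and Slco2b1 were well above background on all 3 MG132 arrays and on no untreated array. For Shisal1 both groups with MG132 (means -0.38 and -1.35) lay above 4OHT alone (-2.22). In 570 of the 700 the mean with both compounds was below the mean with 4OHT alone, against 12038 of all 26837 genes tested. In 130 it was above, as in Fosl1, against 14799 of all genes tested. The MG132 and untreated means enter the interaction, so these counts describe the called genes and are no separate test.

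Gbx2, a homeobox factor that LIF and STAT3 signalling maintains in naive cells, changed direction. Its levels were 0.94, 0.92 and 1.17 in untreated cells, 3.54, 3.43 and 3.70 with 4OHT, -0.75, -0.80 and -0.85 with MG132, and -1.30, -1.72 and -1.36 with both. The 4 groups did not overlap, and both groups with MG132 lay below the untreated one. A rise of 2.55 ± 0.13 without MG132 stood against a fall of 0.66 (response -0.66 ± 0.13, limma adjusted p = 0.0051) with it, an interaction of -3.20 ± 0.18 (adjusted p = 4.4e-05). Among genes with a symbol and all 4 groups above background, 78 rose without and fell with MG132. Besides Gbx2, the most negative were the purinergic receptor gene P2rx5 (2.24 and -0.93), the ligand gene Wnt10a (2.62 and -0.45), the death receptor gene Tnfrsf25 (1.91 and -1.08) and Mall (1.70 and -1.18), all called with slide and replicate blocks too; these, and the genes named below only as list members or as turning in direction, were in part chosen after their values were seen. The de novo DNA methyltransferase gene Dnmt3b was also among them (0.84 and -0.45), with 3 probes that gave interactions between -1.29 and -0.10.

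**Figure D3:**
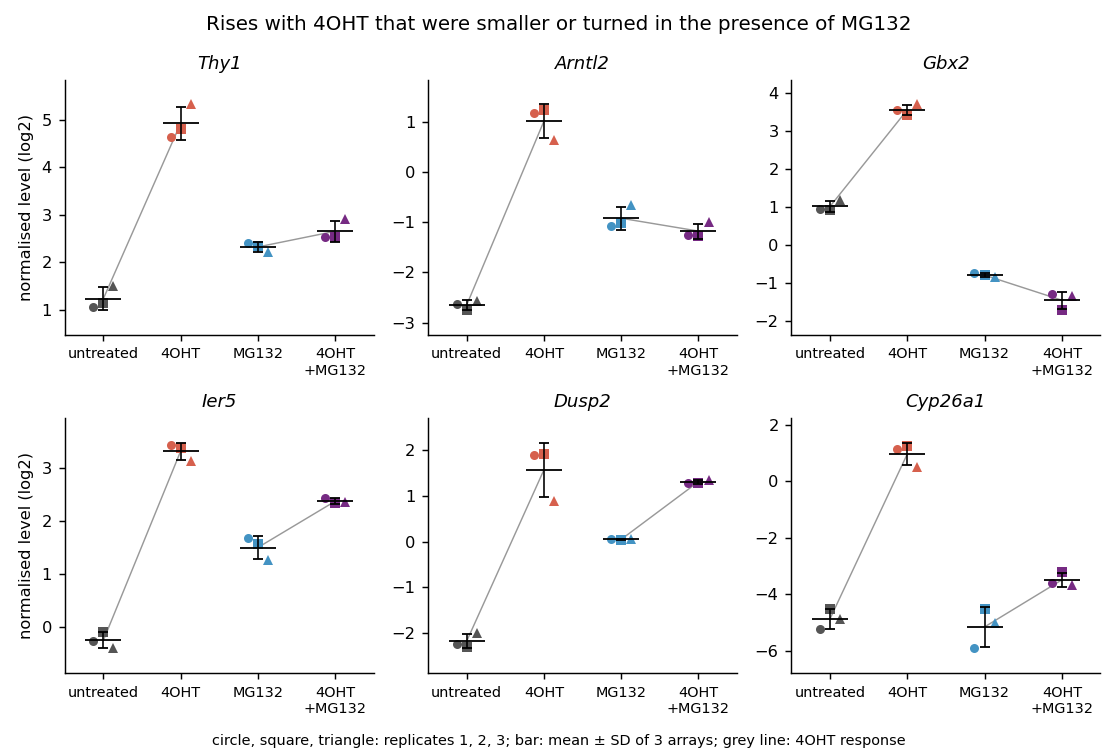
Normalised level (log2, relative to each array's 75th percentile) of 6 genes on every array, with the mean and SD of 3 arrays per group and a line for each 4OHT response. In all 6 the 4OHT arrays stand above the untreated ones, while with MG132 the line is nearly flat (Arntl2, -0.26), short (Thy1, 0.33) or downward (Gbx2, -0.66).

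Promoter sequences are shown for genes of both directions of the interaction, Maff and Egr2 with larger rises and Dusp2 and Gbx2 with rises that shrank or turned. Only promoters holding a motif searched for could be shown, so its presence in these windows was fixed by the choice. Promoters on a chromosome left out of the display were not among them. The search covered 250 bases before to 50 after the start, both strands, for AP-1 (TGACTCA), CRE (TGACGTCA), ETS (ACCGGAAGT), EGR (GCGTGGGCG) and E-box (CACGTG) letters; no motif of these lies within another. Sequences are RefSeq's, GRCm38.p6, 5' to 3' along the gene, with matches in capitals.
Maff: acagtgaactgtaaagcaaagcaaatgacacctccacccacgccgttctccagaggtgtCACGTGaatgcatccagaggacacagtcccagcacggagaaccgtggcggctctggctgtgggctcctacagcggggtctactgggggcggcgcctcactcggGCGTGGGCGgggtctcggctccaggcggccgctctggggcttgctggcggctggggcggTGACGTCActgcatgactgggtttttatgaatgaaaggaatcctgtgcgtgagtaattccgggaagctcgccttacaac
Egr2: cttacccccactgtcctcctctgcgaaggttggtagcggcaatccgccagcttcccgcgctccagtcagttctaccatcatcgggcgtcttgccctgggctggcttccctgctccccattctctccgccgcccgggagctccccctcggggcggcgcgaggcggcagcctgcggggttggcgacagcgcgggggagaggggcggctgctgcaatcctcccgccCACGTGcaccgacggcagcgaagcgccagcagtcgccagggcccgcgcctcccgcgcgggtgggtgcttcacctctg
Dusp2: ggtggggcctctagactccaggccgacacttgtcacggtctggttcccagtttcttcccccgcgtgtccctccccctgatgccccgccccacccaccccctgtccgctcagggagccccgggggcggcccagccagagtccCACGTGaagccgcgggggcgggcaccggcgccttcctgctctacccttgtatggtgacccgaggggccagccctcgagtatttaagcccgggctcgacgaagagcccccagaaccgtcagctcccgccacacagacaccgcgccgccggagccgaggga
Gbx2: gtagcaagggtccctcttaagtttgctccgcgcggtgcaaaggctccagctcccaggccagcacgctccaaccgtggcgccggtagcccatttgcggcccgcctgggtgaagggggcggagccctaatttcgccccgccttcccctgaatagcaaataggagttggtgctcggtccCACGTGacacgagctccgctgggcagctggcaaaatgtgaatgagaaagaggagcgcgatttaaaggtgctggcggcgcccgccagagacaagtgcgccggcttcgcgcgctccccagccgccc
The Maff window (chr15:79347270-79347569, + strand) holds an E-box at -191, an EGR motif at -88 and a CRE at -29. The windows of Egr2 (chr10:67535249-67535548, + strand), Dusp2 (chr2:127335909-127336208, + strand) and Gbx2 (chr1:89931127-89931426, - strand) each hold an E-box, at -27, -109 and -74. E-box letters were in 7.15% of all promoters in the table, 8.48% of those of genes with a positive and 9.92% of those with a negative interaction, and in 9.41% for all genes tested. CRE letters were in 1.79% of all promoters, 2.81% for genes tested, 1.88% with a positive and 1.84% with a negative interaction. In the same order, EGR letters were in 0.612%, 1.03%, 1.41% and 1.70%. AP-1 letters were in 5.20%, 4.03%, 5.18% and 4.11%, and ETS letters in 1.1%, 1.85%, 0.785% and 0.850%. The letters thus occurred in both directions of the interaction. Of the 77 genes chosen by rule, 55 had a promoter in the table.

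Of 19 formative and primed epiblast genes tested, which mark the state that follows naive pluripotency, 9 had a negative interaction and none a positive one (47.4% called against 6.46% of all genes), with a median of -1.02. The list's median response was 0.99 without MG132 and 0.23 with it. Without MG132 11 members rose and 2 fell, against 13% and 15.3% of all genes. With it 4 rose and 4 fell, against 12.9% and 13.1%. Dnmt3a, the other de novo DNA methyltransferase gene, was at 0.00, 0.10 and 0.34 in untreated cells, 1.80, 1.74 and 1.83 with 4OHT, -0.51 and -0.55 on the MG132 arrays that measured it, and -0.34, -0.42 and -0.39 with both. It rose by 1.64 ± 0.10 without MG132 and changed by 0.14 ± 0.11 with it (interaction -1.5 ± 0.15, limma adjusted p = 0.0010). Grhl2, an epithelial transcription factor, still rose with MG132 but by less (3.18 and 1.60; interaction -1.58 ± 0.20, limma adjusted p = 0.0020). Foxd3, a forkhead factor, differed from these: it changed by 0.06 without MG132 and fell with it (-1.75), from 1.97, 1.76 and 1.03 with MG132 to 0.05, -0.18 and -0.36 with both (interaction -1.81 ± 0.32, limma adjusted p = 0.010). Dnmt3b (-1.29), the bHLH factor Tcf15 (-1.0) and the cadherin gene Cdh2 (-1.14) were called too, but Tcf15 not with slide and replicate blocks (limma, adjusted p = 0.076) and Cdh2 not with slide as a block (adjusted p = 0.053). The remaining calls, Pou3f1 (3.92 and 2.14), Otx2 (0.25 and -0.77) and Fgf5 (1.29 and -0.35), were lost when 9, 5 and 10 single arrays were left out in turn (limma, adjusted p up to 0.084, 0.064 and 0.12), and with slide as a block (0.19, 0.069 and 0.24). The list's median stayed between -1.17 and -0.61 over the alternatives, the latter with normexp background correction.

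Mesendoderm and primitive streak genes, which mark the first germ layer cells, had 5 negative and 2 positive calls among 13 tested (53.8% against 6.46% of all genes). The list's median was -1.21, and -0.51 with normexp background correction. Brachyury (T) was at -5.22, -5.24 and -4.65 in untreated cells, -2.83, -3.00 and -2.21 with 4OHT, -3.77, -3.80 and -3.57 with MG132, and -3.75, -3.68 and -2.84 with both. Untreated arrays were the lowest, 1 of them above background, and the arrays with MG132 overlapped with and without 4OHT. Its rise of 2.36 became 0.29, not called (interaction -2.07 ± 0.40, limma adjusted p = 0.013, and 0.056 with slide as a block). The bHLH factor gene Mesp2 rose by 0.85 and changed by -0.36, not called (interaction -1.21 ± 0.21, limma adjusted p = 0.0083, and 0.054 with slide and replicate blocks). Eomes (3.21 and 2.0), Evx1 (3.78 and 2.21) and Mesp1 (2.49 and 0.43) had negative calls that were lost with slide as a block (limma, adjusted p = 0.16, 0.13 and 0.13) and without 9, 7 and 9 of the 12 arrays in turn (adjusted p up to 0.087, 0.063 and 0.095). Of the positive members, Gsc, a homeobox gene of the organiser, was at least 6.30-fold lower with 4OHT alone and 3.27-fold lower with MG132 present (fitted interaction 3.08 ± 0.47, limma adjusted p = 0.0049), and Tbx6 had an interaction of 1.28 that was lost with slide as a block (adjusted p = 0.096) and without 10 single arrays in turn (up to 0.092). Among 17 Wnt targets 4 had a negative and none a positive interaction, T, Sp5, Myc and the Wnt effector gene Tcf7 (-0.81; limma adjusted p = 0.13 with slide as a block). Sp5, a direct target of Wnt signalling, went from 2.80 to 0.19 (interaction -2.60 ± 0.47, limma adjusted p = 0.011). Of the Wnt list 23.5% was called in the interaction, against 6.46% of all genes. The list's median of -0.31 ranged from -0.92 without the replicate 3 arrays of all groups to -0.08 without 4OHT replicate 2. For Cdx2, a caudal homeobox gene of trophoblast and posterior streak, the rises were at least 115-fold and at least 24.7-fold, and the interaction was not called (-2.10 ± 1.13, limma adjusted p = 0.33). The 4OHT arrays were at 2.85, 2.76 and -0.57, and of the 12 arrays only the omission of 4OHT replicate 3 gave a call (-3.23); without the replicate 3 arrays of all groups the value was -3.34 (limma, adjusted p = 0.011). Of 15 trophoblast genes tested, Gata2 and Ets2 had a positive and Eomes a negative interaction, all lost with slide as a block (limma, adjusted p = 0.078, 0.090 and 0.16), and the list's median response was 0.13 without and 0.50 with MG132. Of the trophoblast list 20% was called in the interaction, against 6.46% of all genes. The list's median interaction was nevertheless negative, at -0.26, and between -0.55 and -0.02 over the alternatives. None of 19 primitive endoderm genes was called.

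**Figure D4:**
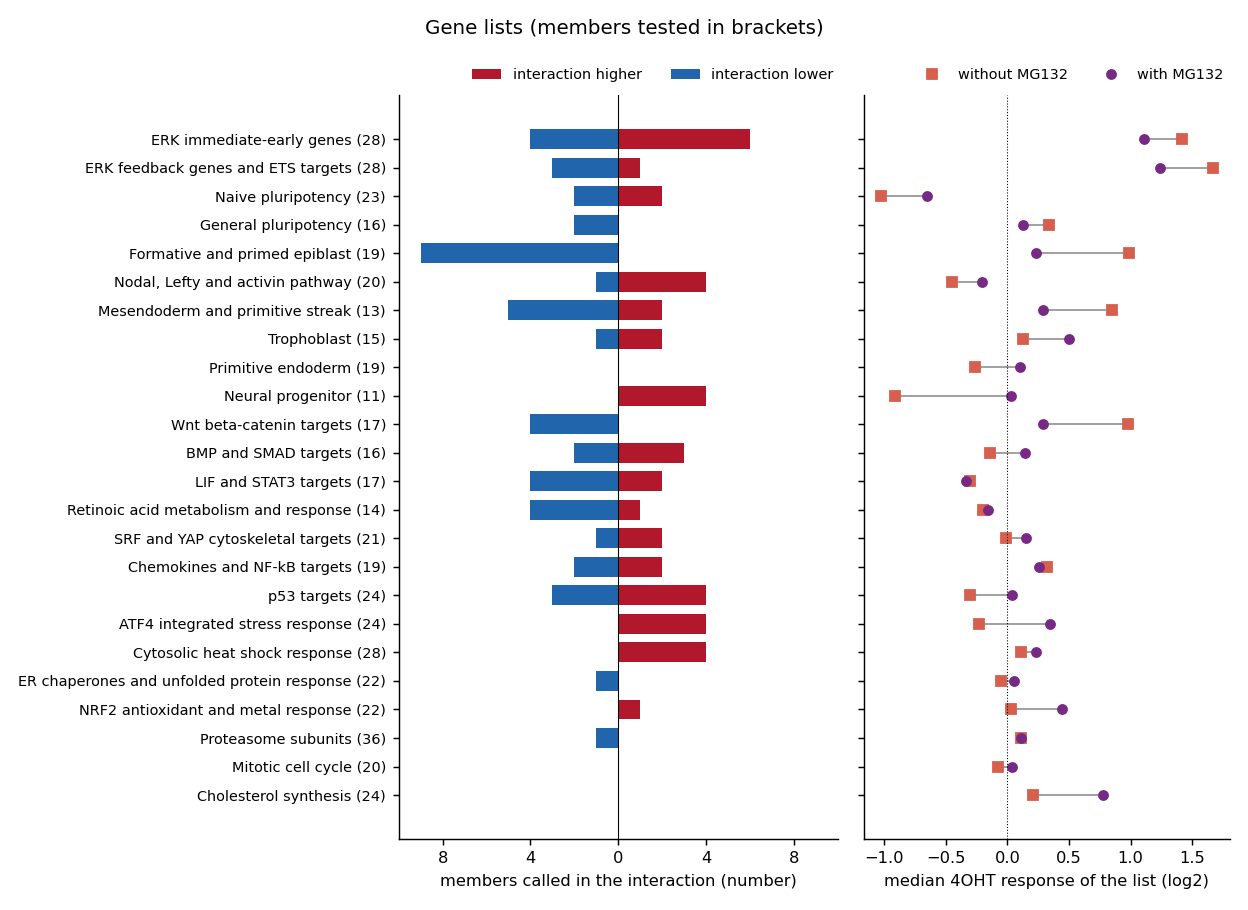
For 24 gene lists, the left panel gives the number of members called in the interaction, positive to the right and negative to the left, and the right panel the median 4OHT response (log2) without and with MG132. Formative genes had 9 negative calls and a median response of 0.99 without against 0.23 with MG132; neural genes had 4 positive calls, with medians of -0.91 and 0.03.

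Retinoic acid genes included some of the strongest losses, with 4 negative and 1 positive call among 14 tested (35.7% against 6.46% of all genes). The list's median was 0.00. Cyp26a1, which encodes the enzyme that degrades retinoic acid, was at -5.21, -4.50 and -4.88 in untreated cells, 1.13, 1.25 and 0.51 with 4OHT, -5.91, -4.52 and -5.02 with MG132, and -3.60, -3.19 and -3.67 with both. Untreated and MG132 arrays overlapped, 4OHT arrays were far above them, and arrays with both compounds lay between. The rise went from 5.82 to 1.66 (interaction -4.16 ± 0.48, limma adjusted p = 0.0014). It was well above background on 1 untreated array and no MG132 array, so the rise with MG132 was at least 2.20-fold. Aldh1a3, whose product makes retinoic acid from retinal, rose by 6.25 and 3.71 (interaction -2.53 ± 0.49, limma adjusted p = 0.014, and 0.062 with slide as a block). Rarg, a nuclear receptor for retinoic acid, rose by 1.48 without MG132 and changed by -0.25 with it (interaction -1.73 ± 0.22, limma adjusted p = 0.0022). Dhrs3, which encodes a retinal reductase, was the positive member (-2.13 and -0.75), lost with slide as a block (limma, adjusted p = 0.11) and without 4 single arrays in turn (untreated replicate 1, MG132 replicate 2, replicates 1 and 2 with both compounds; up to 0.065). The list's median changed sign under 20 alternatives. Among 16 BMP and SMAD targets, 3 had a positive and 2 a negative interaction (31.2% called against 6.46% of all genes). Msx1, a homeobox target of BMP, rose by 4.76 and 1.55 (interaction -3.22 ± 0.43, limma adjusted p = 0.0027), while the inhibitor of differentiation gene Id3 changed by -0.42 without MG132 and rose by 1.76 with it (2.18 ± 0.42, adjusted p = 0.014). Among the MG132 arrays Id3 was at 0.15 in replicate 3 beside 1.41 and 1.46 in the others; without the replicate 3 arrays of all groups its interaction was 1.80 (limma, adjusted p = 0.0031). Thy1, a surface glycoprotein gene listed here as a fibroblast marker, was at 1.05, 1.14 and 1.5 in untreated cells, 4.64, 4.80 and 5.32 with 4OHT, 2.40, 2.35 and 2.21 with MG132, and 2.53, 2.52 and 2.90 with both. The 4OHT arrays stood above all others. It rose by 3.69 without MG132 and changed by 0.33 with it (interaction -3.36 ± 0.27, limma adjusted p = 0.00020). Of 11 fibroblast markers tested 2 were called, both negative (18.2% against 6.46% of all genes). The list as a whole did not share this direction: its median interaction was 0.24, and -0.69 to 0.41 over the alternatives. On the arrays with 4OHT alone 2 of the 11 were never well above background.

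Falls with 4OHT were smaller with MG132 in some genes of the Nodal pathway, in which Nodal signals through SMAD proteins and induces its own antagonists. Lefty1, which encodes such an antagonist, had levels of 3.28, 3.52 and 3.22 in untreated cells, -3.54, -3.58 and -1.21 with 4OHT, -0.51, -0.39 and -1.20 with MG132, and -0.92, -0.56 and -1.31 with both. Untreated arrays were highest, MG132 alone was already lower and overlapped with both compounds, and 4OHT replicate 3 lay within their range. The change of -6.12 ± 0.54 stood against -0.23 ± 0.54, which was not called. Both SEs share 1 spread, while the SD of Lefty1 was 1.35 with 4OHT, 0.16 in untreated cells, 0.44 with MG132 and 0.38 with both. The interaction of Lefty1 was 5.89 ± 0.77 (limma, adjusted p = 0.0024), and 6.67 without the replicate 3 arrays of all groups (adjusted p = 0.00071). Lefty2, its close relative, changed by -2.22 and -0.23 (interaction 1.99 ± 0.29, limma adjusted p = 0.0040), again from a lower level with MG132 (mean 0.80 against 3.36 in untreated cells). Of 20 Nodal pathway genes 4 had a positive and 1, the SMAD corepressor gene Skil (1.21 and 0.17), a negative interaction. That was 25% called against 6.46% of all genes. The list's median was 0.45, and 0.10 with normexp background correction. Nodal itself fell in both responses (-1.79 and -0.90) and its interaction of 0.89 was not called.

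Of 23 naive pluripotency genes tested, 13 fell without and 11 with MG132, against 15.3% and 13.1% of all genes. They had 2 positive and 2 negative interaction calls (17.4% against 6.46% of all genes) and a median interaction of 0.17. Nanog, a core factor, was at 4.61, 4.65 and 4.46 in untreated cells, 1.99, 1.91 and 2.47 with 4OHT, 3.00, 2.97 and 2.88 with MG132, and 1.54, 1.48 and 1.45 with both. The groups did not overlap, and both compounds together gave the lowest level. The fall was smaller with MG132 (-2.45 and -1.46; interaction 0.98 ± 0.19, limma adjusted p = 0.015), a call not made with slide as a block (adjusted p = 0.059), and a second, dimmer probe gave -0.59 ± 0.58. Klf4 (1.15 ± 0.40, limma adjusted p = 0.13) and Esrrb (0.17 ± 0.20, adjusted p = 0.68), other naive factors, fell in both responses and were not called in the interaction. For Klf4 the 4OHT arrays were at 3.97, 4.53 and 5.42; of the 12 arrays only the omission of 4OHT replicate 3 gave a call (1.55), and without the replicate 3 arrays of all groups the value was 1.64 (limma, adjusted p = 0.019). Neural progenitor genes had 4 positive and no negative calls among 11 tested (36.4% against 6.46% of all genes). The median interaction was 0.95 and ranged from 0.07 with normexp background correction to 1.11 with slide as a block. The list's median response was -0.91 without and 0.03 with MG132. Sox21, a SoxB factor, changed by -1.59 and -0.33 (interaction 1.26 ± 0.13, limma adjusted p = 0.00080), and the neuronal tubulin gene Tubb3 by -1.42 and -0.31 (1.11 ± 0.22, adjusted p = 0.016, and up to 0.051 without replicate 1 or 2 of the cells with both compounds).

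**Figure D5:**
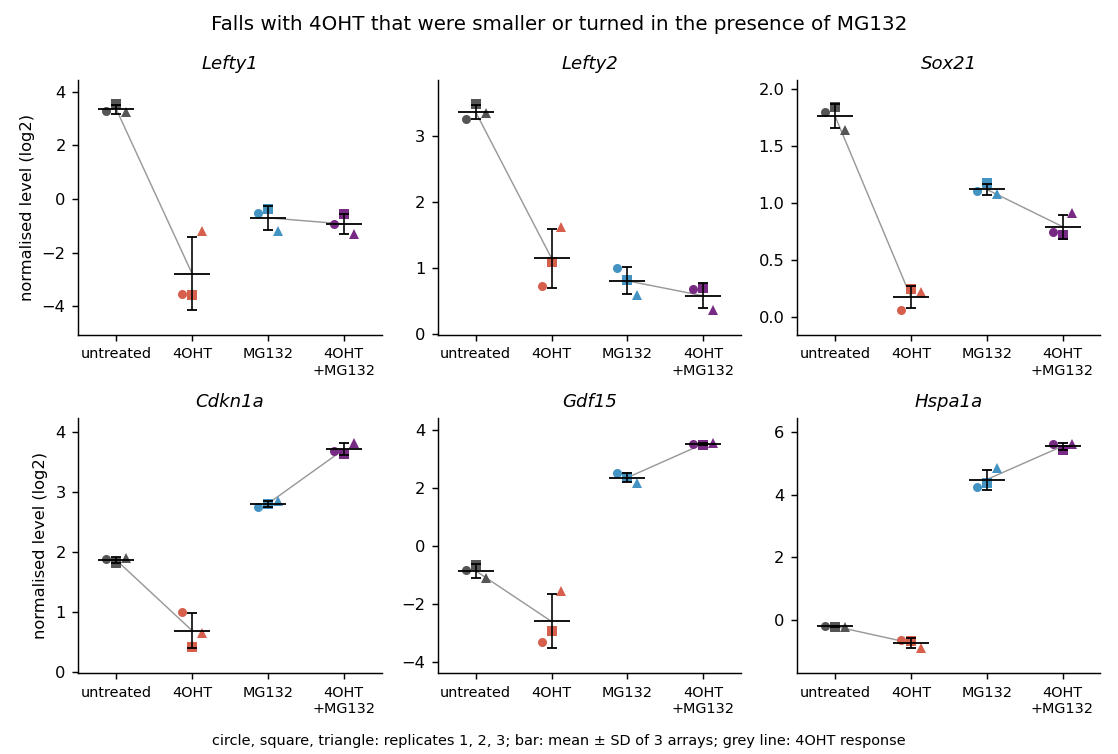
Normalised level (log2, relative to each array's 75th percentile) of 6 genes on every array, with the mean and SD of 3 arrays per group and a line for each 4OHT response. Lefty1 and Lefty2 fall with 4OHT alone and run nearly flat with MG132, Sox21 falls less with MG132 (-1.59 and -0.33), and Cdkn1a, Gdf15 and Hspa1a fall without and rise with MG132.

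A smaller set turned from a fall to a rise. Among genes with a symbol and all 4 groups above background, though not always on each array, 44 fell with 4OHT alone and rose with it under MG132. Cdkn1a, the p53 target that encodes the cell cycle inhibitor p21, was at 1.89, 1.82 and 1.90 in untreated cells, 1.01, 0.42 and 0.66 with 4OHT, 2.76, 2.80 and 2.86 with MG132, and 3.68, 3.63 and 3.82 with both. The 4 groups did not overlap. The change went from -1.18 ± 0.13 to 0.90 ± 0.13 (interaction 2.08 ± 0.19, limma adjusted p = 0.00041). A far dimmer probe of the gene changed by 0.04 without and 1.06 with MG132, with an SE of 0.82 for the difference. Gdf15, a stress-induced cytokine gene, went from -1.74 to 1.16 (2.91 ± 0.51, limma adjusted p = 0.0093, and 0.061 with slide and replicate blocks). Hspa1a, the inducible HSP70 gene, was at -0.17, -0.21 and -0.21 in untreated cells, -0.64, -0.65 and -0.90 with 4OHT, 4.24, 4.36 and 4.84 with MG132, and 5.61, 5.42 and 5.60 with both. Both groups with MG132 stood far above the others, and 4OHT moved the level down by 0.53 without MG132 (response -0.53) and up by 1.06 with it (interaction 1.60 ± 0.21, limma adjusted p = 0.0025). Lrrc15 (-1.72 and 1.32), the cyclin O gene Ccno (-1.1 and 1.56) and the homeobox gene Prox1 (-0.90 and 1.39) also turned, Prox1 not being called with slide and replicate blocks (limma, adjusted p = 0.12).

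The share called was 16.7% of ATF4 targets, 14.3% of cytosolic heat shock genes and 29.2% of p53 targets, against 6.46% of all genes. Of 24 ATF4 targets 4 had a positive and none a negative interaction, with a median of 0.47 (0.81 with slide as a block): Gdf15, Ddit3, Ppp1r15a and the bZIP factor gene Cebpb, whose call of 1.86 was lost without 8 of the 12 arrays in turn (limma, adjusted p up to 0.092). Ddit3, which encodes the stress factor CHOP, changed by -0.41 without MG132, which was not called (limma, adjusted p = 0.059), and rose by 1.45 with it, from 2.42, 2.19 and 1.95 to 3.71, 3.67 and 3.54 (interaction 1.87 ± 0.21, adjusted p = 0.0010). Ppp1r15a, which encodes the phosphatase subunit GADD34, changed by -0.15 and rose by 1.24 (1.40 ± 0.23, limma adjusted p = 0.0071). Of 28 cytosolic heat shock genes 4 had a positive interaction, the cochaperone gene Dnajb1 (-0.03 and 0.96; 0.99 ± 0.11, limma adjusted p = 0.0011) and the small heat shock gene Hspb8 (-2.25 and -1.02; 0.064 with slide and replicate blocks) among them, and the list's median was 0.04, below 0 under 3 alternatives. Of 24 p53 targets 4 were positive and 3 negative, with a median of 0.31. Cholesterol synthesis genes showed how calls in each response differ from a call in the interaction. Among 24 tested 6 rose without and 15 with MG132, against 13% and 12.9% of all genes. None was called in the interaction, and the list's median was 0.44. Of 36 proteasome genes 1, the assembly factor gene Psmg2 (-0.63), was called, but not with slide as a block (limma, adjusted p = 0.15) or without 9 single arrays in turn (up to 0.096), and none of 20 mitotic genes was.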

How the data were processed

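Mouse embryonic stem cell RNA was measured on 12 single-colour Agilent arrays. Per the file headers, Agilent Feature Extraction 11.0.1.1 produced the processed signal intensity values, which the authors deposited; values in the series-wide table differed from them by at most 0. The log2 processed signal was set relative to each array's 75th percentile over non-control probes. Control and outlier spots were left out. Repeated spots were averaged and the probe with the highest mean level stood for a gene. A probe entered when some group had it well above background on each of its 3 arrays: 34328 of 56605 probes, or 26837 genes, 15982 with a RefSeq symbol (symbols matched for 58.3% of probes). A linear model with 4 groups was fitted to all 12 arrays with limma 3.58.1 in R 4.3.3, and p-values were adjusted by Benjamini-Hochberg over all genes. The fit was tested on simulated data with the same spread in all groups and no slide or replicate effects. That test does not cover unequal spread, slides or replicates in these arrays. The members and the 24 gene lists and 3 marker lists were chosen with earlier results of these data known. Genes were named by rule. The 8 largest interactions in each direction with at least 1 array of each group well above background were taken. So were the 4 largest in each direction with no such array in some group. From each list the 3 called members, or fewer, of largest size were added, with 12 fixed genes. Others named were chosen after their values were seen. Alternatives were normexp (offset 50, on median spot signals), quantile and median scaling, no filter, a stricter filter, probe means, array weights, a variance trend, slide and replicate blocks, stricter thresholds and leaving out each array; a percentile over spots and leaving out all replicate 3 arrays were added after seeing the data. The number of arrays limits the precision.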

Additional observations from a re-analysis of the deposited data

Results flagged for a closer look

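The 4OHT response ran in opposite directions with and without MG132, each response and the difference between them being called by limma, in 101 genes that rose with 4OHT alone and fell with 4OHT under MG132, and in 71 genes that fell with 4OHT alone and rose under MG132. Gbx2 (2.55 and -0.66) and Cdkn1a (-1.18 and 0.90) are examples.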

How the results depend on the processing

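The interaction gave 1735 calls. With array weights it gave 4618, with slide as a block 761, with slide and replicate blocks 767, with at least a 2-fold difference 1041, at adjusted p under 0.01 598, and without the replicate 3 arrays of all groups, a choice made after seeing the data, 2872. Leaving out 1 array gave 998 to 2515. The response without MG132 gave 14159 calls with no filter, 4987 from its own 6 arrays, 3001 at 2-fold and 4735 at 0.01, and 5727 to 8579 without 1 array. The response with MG132 gave 13988 with array weights, 2881 with slide as a block, 2236 with slide and replicate blocks, 1944 at 2-fold and 3484 at 0.01, and 4504 to 8669 without 1 array. The cause of these shifts was not tested. The replicate block gave 2490 interaction calls, 1652 of them shared. Replicate numbers were not taken as pairing the samples, since 7 of 18 same-numbered pairs, all of replicates 1 and 2, had a correlation of deviations at or under 0.1. The 6 replicate 3 pairs were at 0.12 to 0.41, so these arrays deviated together across groups, and 5 of the 12 arrays correlated best with their own number. The median interaction over all genes was 0.05, and 0.15 with median centring. Of 73 called genes named by rule, 31 were called at the usual threshold under each alternative that measured them, and none reversed; the stricter filter measured 50 of the 73, and the stricter thresholds were not counted here. With no filter 571 calls were positive and 1601 negative. Probes near background limit what dim genes show.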
